A study of Homo sapiens with 26 samples.

Results

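The sites described here are FOXA1 peaks that were also found with the FOXA1 construct labelled dbd and with none of the other proteins tested. They were selected on peak overlap alone: a FOXA1 peak belongs to the set when it shared 1 bp or more with a FOXA1dbd peak and no base with a peak of FOXA1nhaa, FOXA1rraa or HNF4A. Of 155652 FOXA1 peaks, 5802 met this rule (3.73%, 95% Wilson interval 3.63 to 3.82), which is 21.5% (21.04 to 22.02) of the 26955 FOXA1 peaks overlapped by FOXA1dbd. Over all FOXA1 peaks, the share without FOXA1nhaa, FOXA1rraa and HNF4A was higher. It is made up of the 3.73% in this set and a further 41.1% that lacked FOXA1dbd as well. The 5802 sites are called dbd-only sites below.

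The peaks come from chromatin immunoprecipitation and sequencing (ChIP-seq) in BJ, a fibroblast cell line from human foreskin, after 48 h of ectopic expression of a protein fused to the HALO tag, with an antibody to that tag. The constructs used were FOXA1 (wild type), FOXA1 variants labelled dbd, nhaa and rraa, and the nuclear receptor HNF4A; the labels do not spell out the variant names, and dbd is read here as the DNA-binding domain. Of 26 samples in the labels, 20 are the 2 ChIP libraries and 2 inputs of each of these constructs, and 6 of HALO-tagged H2B and its inputs were not analysed here; each construct has 1 peak list, which leaves no replicate error and no basis for a test. Shares carry a 95% Wilson interval and differences of shares a Newcombe interval, and both cover the counting of peaks only.

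FOXA1 is a forkhead transcription factor whose DNA-binding domain is a winged helix that inserts a recognition helix into the major groove, and it is known as a pioneer factor able to bind sites wrapped in nucleosomes. Its regions outside the DNA-binding domain are known to take part in transcriptional activation and in contacts with histones. It is best known from liver, breast and prostate epithelium, while active enhancers of fibroblasts are known for binding sites of AP-1, the dimers of FOS and JUN proteins.

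Other FOXA1 peaks without an HNF4A peak formed 3 classes used for comparison. There were 19859 sites shared by FOXA1dbd and at least 1 of FOXA1nhaa and FOXA1rraa, 63433 sites of FOXA1nhaa or FOXA1rraa without FOXA1dbd, and 63949 sites found in no other list. The 2609 FOXA1 peaks with an HNF4A peak are in none of these classes, and 249 of them were overlapped by FOXA1dbd and by neither variant. The classes differ in peak score, so comparisons were also made among peaks of like score.

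The sequences that show what lies under these peaks are the central 100 bp of single sites. They are read 5′ to 3′ on the plus strand of the GRCh37 reference (hg19). Capitals mark a forkhead core (TGTTTAC or TATTTAC, or its reverse complement GTAAACA or GTAAATA) or an AP-1 core (TGANTCA, where N is any base, which is its own reverse complement). The first 5 are the highest-scoring dbd-only sites with a forkhead core in this stretch.
Site between genes near TPBG, chr6:83108185-83108284: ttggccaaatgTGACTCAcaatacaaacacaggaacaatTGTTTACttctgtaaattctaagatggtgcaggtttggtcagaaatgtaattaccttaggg
Intron of CEP126, chr11:101791895-101791994: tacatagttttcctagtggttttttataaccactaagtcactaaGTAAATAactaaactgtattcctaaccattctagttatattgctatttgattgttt
Intron of EXOC4, chr7:133447670-133447769: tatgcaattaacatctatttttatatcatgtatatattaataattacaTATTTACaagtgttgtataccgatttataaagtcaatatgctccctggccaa
Intron of RC3H1, chr1:173912197-173912296: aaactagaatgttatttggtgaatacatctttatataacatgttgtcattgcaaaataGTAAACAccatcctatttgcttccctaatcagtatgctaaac
Start of BCL10-AS1, chr1:85743620-85743719: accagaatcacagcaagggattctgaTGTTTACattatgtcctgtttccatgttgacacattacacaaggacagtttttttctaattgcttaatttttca

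The site near TPBG holds both cores within these 100 bp, the AP-1 core to the left of the forkhead core as read here. Its FOXA1 peak is 171 bp wide with a score of 472, and the centre of its FOXA1dbd peak is 29 bp from the FOXA1 midpoint. The 2 highest-scoring sites without a forkhead core in the central 200 bp, and 2 sites with an AP-1 core, are shown to set beside them; the AP-1 sites were chosen after their values were seen.
No core, intron of MIR99AHG, chr21:17818793-17818892: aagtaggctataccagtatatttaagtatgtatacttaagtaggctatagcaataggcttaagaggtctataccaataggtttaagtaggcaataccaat
No core, intron of CWC22, chr2:180812862-180812961: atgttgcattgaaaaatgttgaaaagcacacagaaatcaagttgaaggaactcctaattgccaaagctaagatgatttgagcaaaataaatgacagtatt
AP-1 core, between genes near USP1, chr1:62883463-62883562: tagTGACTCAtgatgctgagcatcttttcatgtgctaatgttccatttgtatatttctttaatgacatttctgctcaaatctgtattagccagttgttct
AP-1 core, between genes near INPP4B, chr4:143794432-143794531: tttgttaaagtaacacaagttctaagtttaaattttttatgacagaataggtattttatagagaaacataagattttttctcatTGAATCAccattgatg

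The forkhead core was present in the central 200 bp of 22.3% of dbd-only sites (21.2 to 23.4, 1293 of 5802), searched on both strands. The same core was present in 7.32% of all 200 bp tiles of the genome, taken as 1 tile in 20. Among the other classes the share was 21.3% at shared sites, 18.1% at sites of the variants without FOXA1dbd and 17.0% at sites in no other list. The dbd-only sites were therefore 5.24 percentage points (4.15 to 6.37) above the sites in no other list and 4.17 points (3.07 to 5.29) above the variants' sites. Their distance from the shared sites, 0.959 points (-0.240 to 2.19), was within counting error. It was 4.77 points (3.73 to 5.80) when the FOXA1rraa rows that are identical to FOXA1 rows, described below, were not used, and 1.05 points (0.0957 to 2.04) in a central window of 100 bp.

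The letters of the core read backwards (CATTTGT or CATTTAT) served as a check of base composition, since FOXA1 peaks are rich in A and T. That string was present in 18.8% of dbd-only sites and 12.4% of genome tiles. It was less frequent at dbd-only sites than at sites in no other list, by -1.54 points (-2.57 to -0.468), so the order of the classes was not the same for the reversed letters. TATTTAC was present in 14.4% of dbd-only sites and TGTTTAC in 9.24%.

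The AP-1 core was as frequent as the forkhead core. It was present in 22.4% of dbd-only sites (21.3 to 23.4, 1297 of 5802), in 24.4% of shared sites, in 13.4% of the variants' sites and in 12.3% of sites in no other list, against 6.25% of genome tiles. The dbd-only sites were 10.1 points (8.98 to 11.2) above the sites in no other list and 8.999 points (7.91 to 10.1) above the variants' sites, but -2.08 points (-3.30 to -0.843) from the shared sites. That last difference was -0.656 points (-1.62 to 0.343) in a central window of 100 bp and -0.158 points (-2.34 to 2.08) in windows of at least 35% GC. The spelling TGACTCA alone was present in 14.1% of dbd-only sites and 6.01% of sites in no other list, a ratio of 2.35. The reversed string ACTNAGT was present in 6.91% of dbd-only sites, 7.81% of shared sites and 6.99% of sites in no other list. Its difference from shared sites was -0.894 points (-1.63 to -0.121), so a lower share than at shared sites was not particular to the AP-1 letters.

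**Figure D1:**
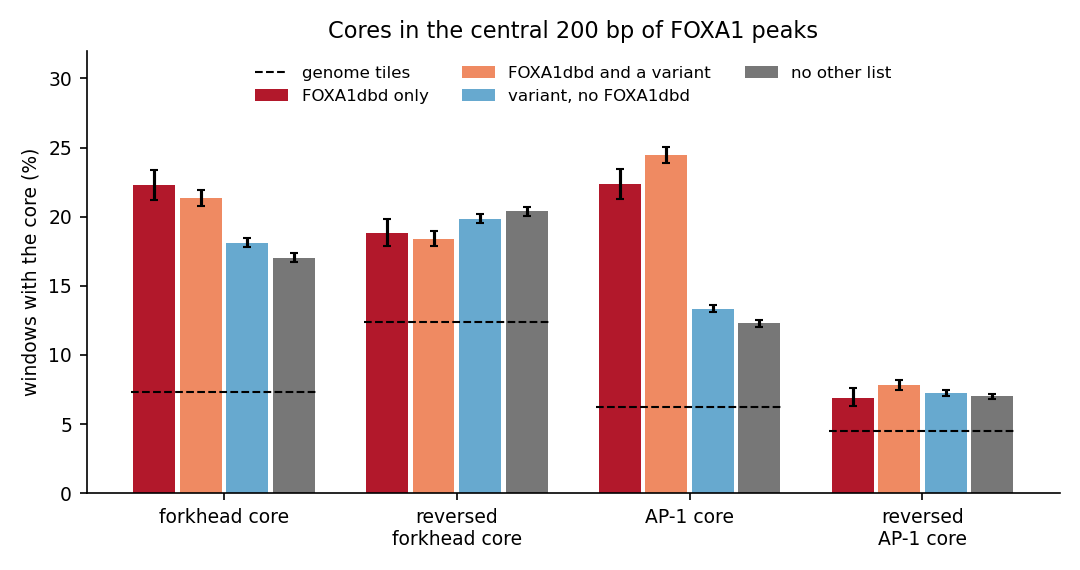
Share of FOXA1 peaks whose central 200 bp hold each core (percent), for dbd-only sites and the 3 other classes; error bars are 95% Wilson intervals and dashed lines the share of 200 bp genome tiles. Both FOXA1dbd classes stand above the other 2 for the forkhead core and the AP-1 core, and not for the reversed letters.

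The cores were concentrated at the peak centres. In dbd-only sites the forkhead core occurred 1.56 ± 0.0519 times per kb (Poisson SE over counted cores) in the central 100 bp and 0.438 ± 0.0194 times per kb in the outer 100 bp on each side of a 1 kb window, a ratio of 3.57. The ratio was 2.95 at shared sites, 2.31 at the variants' sites and 2.38 at sites in no other list. The AP-1 core of dbd-only sites occurred 1.41 ± 0.0493 times per kb in the centre and 0.327 ± 0.0168 in the flanks, a ratio of 4.32, compared with 4.19 at shared sites and 2.18 at sites in no other list. Centred on the FOXA1dbd summit instead of the FOXA1 midpoint, the ratios in dbd-only sites were 3.90 for the forkhead core and 5.15 for the AP-1 core. At shared sites they were 3.44 and 5.39. In dbd-only sites the nearest forkhead core within 100 bp lay a median of 34 bp from the FOXA1dbd summit, and the nearest AP-1 core 38 bp. The medians at shared sites were 37 bp and 39 bp.

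**Figure D2:**
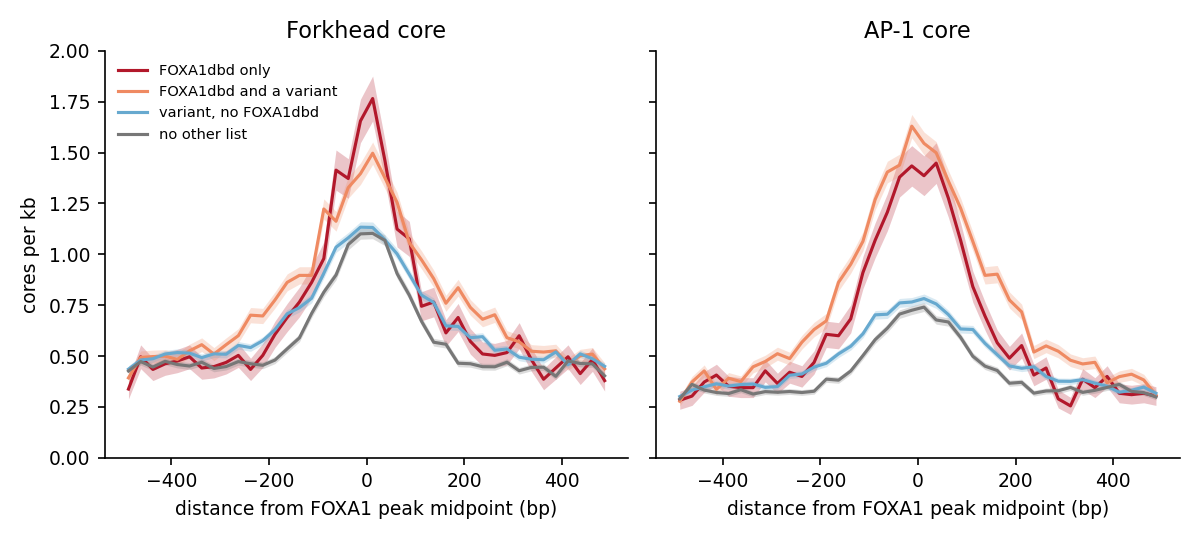
Density of forkhead cores (left) and AP-1 cores (right), in cores per kb by distance from the FOXA1 peak midpoint in bp, in bins of 25 bp; shading is 1 Poisson SE. The dbd-only sites peak at the midpoint for both cores, at about the density of shared sites for AP-1 and above the sites without FOXA1dbd for both.

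The comparison with shared sites depended on where a peak was centred. The median distance from FOXA1 midpoint to FOXA1dbd centre was 36 bp in dbd-only sites and 56 bp in shared sites. Around the FOXA1dbd summit, a forkhead core was present in 22.9% of dbd-only sites (21.8 to 24.1, 4935 sites with a summit inside the row) and in 23.1% of shared sites. The AP-1 core was present in 24.6% (23.4 to 25.8) and 29.7% (29.0 to 30.3). Around the FOXA1dbd peak centre the difference from shared sites was -0.345 points (-1.55 to 0.887) for the forkhead core and -5.10 points (-6.36 to -3.81) for AP-1.

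Forkhead and AP-1 cores tended to lie in different dbd-only sites. Both were present in 202 sites (3.48%), the forkhead core alone in 1091 (18.8%) and the AP-1 core alone in 1095 (18.9%), which left 3414 sites (58.8%) with neither. The share with neither was 58.4% at shared sites and 72.4% at sites in no other list. A forkhead core was found in 15.6% of dbd-only sites with an AP-1 core and in 24.2% of those without, a difference of -8.64 points (-10.9 to -6.23). The same difference was -5.70 points (-6.93 to -4.43) at shared sites and -3.66 points (-4.47 to -2.82) at sites in no other list, and the intervals of the first and the last do not overlap.

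The groups also differed in base composition. Median GC content of the 200 bp window was 30% for dbd-only sites with a forkhead core alone and 35.5% for those with an AP-1 core alone. The forkhead core has fewer G and C letters than the AP-1 core. The FOXA1dbd fold enrichment as given by the authors' peak caller was alike in these groups: its median was 5.27 with both cores, 5.17 with the forkhead core alone, 5.16 with the AP-1 core alone and 5.09 with neither.

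The gap between dbd-only sites and the other classes changed with GC content, and in opposite directions for the cores. Among windows under 30% GC the forkhead core was present in 32.3% of dbd-only sites (559 of 1730), 27.7% of shared sites and 19.9% of sites in no other list. There the difference from sites in no other list was 12.5 points (10.2 to 14.8). It was 5.76 points (3.91 to 7.72) from 30 to 35% GC, 0.736 points (-1.17 to 2.81) from 35 to 40% GC and -2.66 points (-4.98 to 0.0247) at 40% GC or more. Over all windows of at least 35% GC the forkhead difference was -0.529 points (-2.04 to 1.10), so the difference over all sites rests on windows under 35% GC. Against shared sites it was 4.63 points (2.10 to 7.21) under 30% GC and -4.01 points (-6.63 to -1.12) at 40% GC or more.

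For AP-1 the order was the opposite. Under 30% GC the core was present in 11.8% of dbd-only sites, 14.6% of shared sites and 9.91% of sites in no other list, a difference from the last of 1.88 points (0.386 to 3.54). At 40% GC or more it was present in 34.4% of dbd-only sites (245 of 713), 34.1% of shared sites and 17.3% of sites in no other list, a difference of 17.1 points (13.5 to 20.8). Mean GC content over all windows was 33.0% (SD 5.75) in dbd-only sites, 33.5% in shared sites and 32.3% in sites in no other list. Dbd-only sites spread more widely in GC content than the other classes, whose SDs were 4.51 to 4.98.

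**Figure D3:**
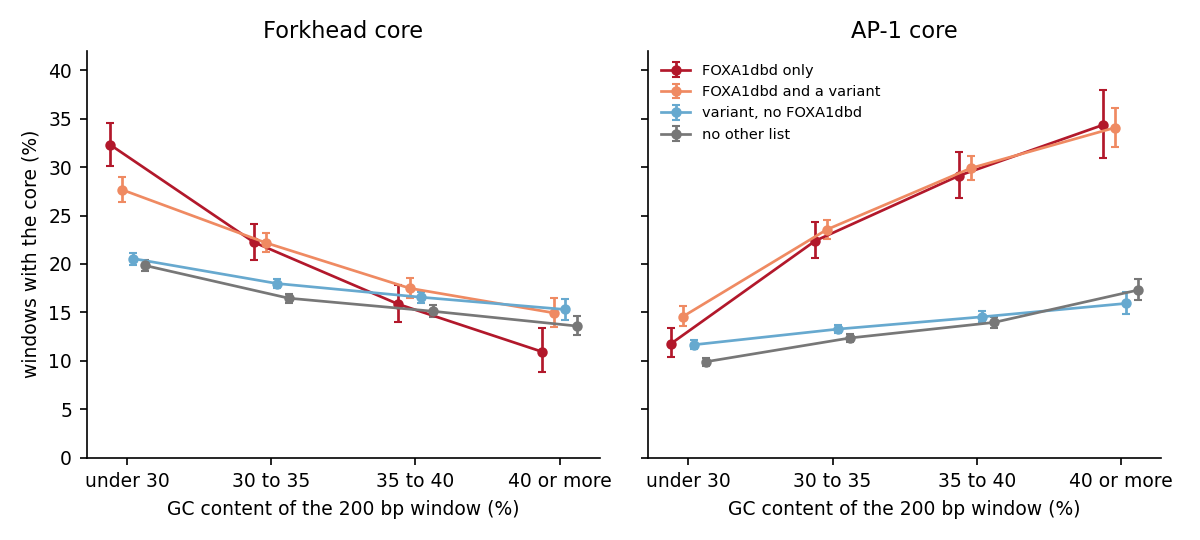
Share of windows with a forkhead core (left) or an AP-1 core (right), in percent, by GC content of the 200 bp window and class; error bars are 95% Wilson intervals. The dbd-only sites are 12.5 points above sites in no other list for the forkhead core under 30% GC and 17.1 points above them for AP-1 at 40% GC or more.

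Peak strength is a description here, since overlap with several lists chose the sites. The authors' FOXA1 score of dbd-only sites ran from 20 to 616 with a median of 114, compared with 198 at shared sites, 143 at the variants' sites and 98 at sites in no other list. Their median width was 272.5 bp, against 434 bp at shared sites and 239 bp at sites in no other list. Of FOXA1 peaks overlapped by FOXA1dbd, the dbd-only sites made up 43.2% (41.4 to 45.03) in the lowest quintile of FOXA1 scores and 7.42% (6.92 to 7.96) in the highest. Of all FOXA1 peaks they made up 4.02% and 2.36%. Sites in no other list fell likewise, from 18512 of 31203 FOXA1 peaks in the lowest quintile to 4919 of 31083 in the highest. The fall with score is thus not particular to peaks overlapped by FOXA1dbd. Within every quintile of the score the forkhead share of dbd-only sites was above that of sites in no other list, by 3.67 points (1.45 to 6.07) in the lowest and 6.72 points (3.63 to 10.1) in the highest.

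The AP-1 share of dbd-only sites was lower at higher scores. It was 24.8% in the lowest quintile, 24.7% in the second, 24.1% in the third, 18.5% in the fourth and 16.8% (14.2 to 19.6) in the highest. The shared sites gave 26.7% and 22.2% at the ends of the same range. The difference from shared sites was -1.91 points (-5.17 to 1.37) in the lowest quintile and -5.47 points (-8.15 to -2.47) in the highest. AP-1 cores were more frequent than at sites in no other list in each quintile, by 12.01 points (9.64 to 14.5) in the lowest and 7.04 points (4.37 to 10.0) in the highest.

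**Figure D4:**
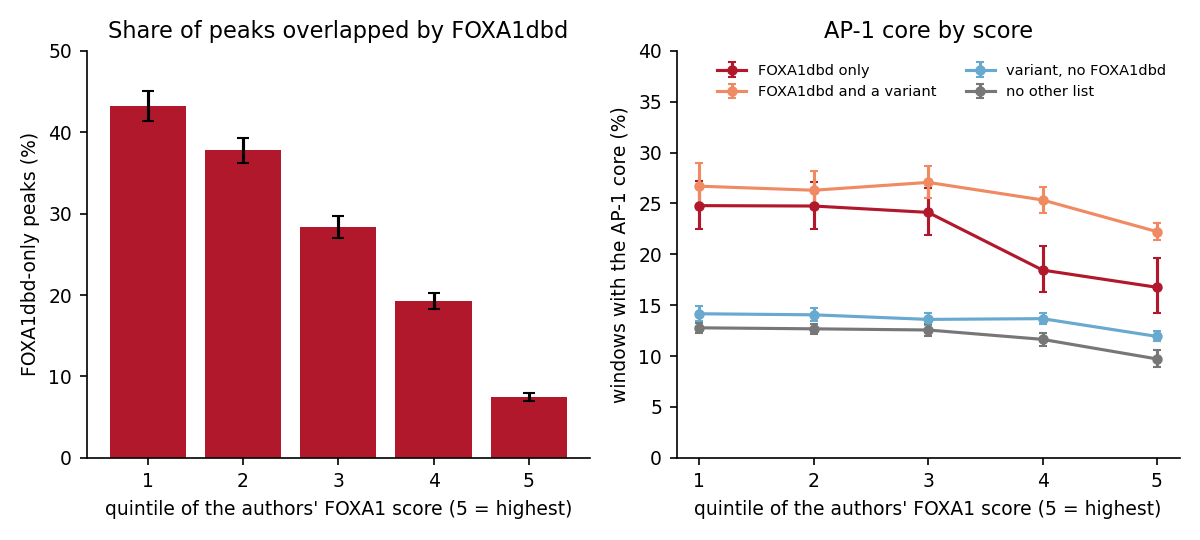
Left, dbd-only sites as a percent of all FOXA1 peaks overlapped by FOXA1dbd, by quintile of the authors' FOXA1 score. Right, percent of windows with an AP-1 core by class and quintile of the score; error bars are 95% Wilson intervals. From the lowest quintile to the highest, the dbd-only share goes from 43.2% to 7.42% and the AP-1 share of dbd-only sites from 24.8% to 16.8%. Sites in no other list also fall, from 18512 of 31203 FOXA1 peaks to 4919 of 31083 (not drawn).

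The FOXA1dbd peaks at these sites differed little from those at shared sites in the caller's values. The 5899 FOXA1dbd peaks there had a median fold enrichment of 5.13 (quartiles 4.44 and 5.93) and a median −log10 q-value of 5.86, as the authors' caller gave them, against 5.19 and 6.23 at shared sites. They covered a median of 71.2% of the FOXA1 peak, compared with 56.9% at shared sites, where FOXA1 peaks were wider (median 434 bp against 272.5 bp). In 99.1% of dbd-only sites and 99.8% of shared sites a FOXA1dbd peak lay wholly inside the FOXA1 peak. The coordinates were those of the FOXA1 row itself for 17.3% (16.3 to 18.3) of these FOXA1dbd peaks and for 8.62% at shared sites. The summit lay beyond the row's own end in 15.1%, compared with 7.61% at shared sites. Rows of the latter kind do not reach their own summit and so are not whole peaks, and the coverage above includes them. Whether the other rows are whole peaks was not tested.

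Peaks of the left-out lists lay close to some of the sites. The nearest FOXA1nhaa, FOXA1rraa or HNF4A peak was a median of 3194 bp away from a dbd-only site. It was under 200 bp away for 241 sites (4.15%), under 1000 bp away for 1315 (22.7%), and beyond 100 kb for 26 (0.448%). Sites in no other list were much alike, with a median of 2942 bp, 4.60% under 200 bp, 23.9% under 1000 bp and 0.247% beyond 100 kb. At the edges of the rule, 209 sites were included through 50 bp or less of FOXA1dbd overlap (median FOXA1 score 74) and 38 lay within 50 bp of a left-out peak (median score 120). Just outside it, 155 shared sites had 50 bp or less of overlap with a variant's peak (median score 103), and 0 of the sites in no other list lay within 50 bp of a FOXA1dbd peak. Since FOXA1dbd peaks at FOXA1 peaks lay almost always wholly inside them, that 0 says little about the edge of the rule.

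The set also depends on how the FOXA1rraa list was made. Of the 71202 FOXA1rraa rows, 23216 have the coordinates and peak name of FOXA1 rows. A further 4736 FOXA1 peaks were left out of the set only because such a row was in the FOXA1rraa list. Without those rows the rule would give 10538 sites. The 4736 peaks had a median FOXA1 score of 170, above the 114 of dbd-only sites, and a forkhead core in 26.9% (25.6 to 28.2). They are all of the FOXA1 peaks with FOXA1dbd and FOXA1rraa and without FOXA1nhaa or HNF4A, and are counted among the 19859 shared sites. No shared site therefore rests on FOXA1rraa alone without an identical row. Of the 63433 variants' sites, 18096 had a FOXA1rraa peak and no FOXA1nhaa peak. Over all FOXA1 peaks, those with FOXA1rraa and without FOXA1nhaa are exactly as many as the identical rows, 23216. The 18096 variants' sites may thus rest on identical rows in the same way, which was not checked row by row. Whether the identical rows are FOXA1rraa peaks or FOXA1 peaks entered into that list cannot be told apart from the files.

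Strongest among the dbd-only sites by FOXA1 score was a 595 bp peak in an intron of the long noncoding RNA gene MIR99AHG on chromosome 21 (score 616, FOXA1dbd fold enrichment 5.86). It was followed by a 586 bp peak in an intron of CWC22, a splicing factor gene, on chromosome 2 (score 603, fold 4.88). The third lay between genes on chromosome 4 (chr4:33062943-33063354, score 598, fold 6.05). A peak between genes on chromosome 1 (chr1:199863878-199864263), whose nearest coding start is that of NR5A2, had a score of 558 and a fold of 7.76. A peak in an intron of PCCA, which encodes a subunit of a mitochondrial carboxylase, had a score of 557. None of these 5 sites held a forkhead core in the central 200 bp, which was also absent from 4509 of all 5802 dbd-only sites. The 5 are too few to tell the strongest sites from the others in this, and 1 of the 6 highest-scoring sites is not among them.

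By FOXA1dbd −log10 q-value the strongest dbd-only site was in an exon of ARID2, a chromatin remodelling subunit gene, outside its coding sequence, on chromosome 12 (chr12:46300203-46300745). It had a −log10 q-value of 39.9 with a FOXA1 score of 126. A site in an exon, outside coding sequence, where SLC4A7, a bicarbonate transporter gene, overlaps a noncoding RNA gene had 31.5 and a FOXA1 score of 276. A site in an intron of PRKG1, a protein kinase gene, had 30.4 with a FOXA1 score of 40. With a site in a noncoding RNA gene (35.3), all 4 carried the peak-name prefix WT_FOX, which marks 76 of the 5899 FOXA1dbd peaks of the set (1.29%). The FOXA1dbd rows at the SLC4A7 and PRKG1 sites and in that noncoding RNA gene have exactly the coordinates of the FOXA1 row. The FOXA1dbd row at ARID2 ends where the FOXA1 row ends. Whether the prefixes mark separate peak calls is not given in the sources used here.

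The dbd-only sites lay between genes more often than the other classes did. Of the 5802, 27.4% (26.3 to 28.6) lay between genes, compared with 21.9% of shared sites, 23.2% of sites in no other list and 18.8% of the variants' sites. The differences were 5.53 points (4.26 to 6.82), 4.26 points (3.08 to 5.47) and 8.63 points (7.46 to 9.83). Introns held 60.03% of dbd-only sites, 63.8% of shared sites and 64.2% of sites in no other list. Transcription starts were within 1000 bp of 507 dbd-only sites (8.74%, 8.04 to 9.49), a share that differed from that of sites in no other list by 0.532 points (-0.200 to 1.31). Coding exons held 21 sites. The median distance to the nearest start was 10454 bp.

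The forkhead core varied little between kinds of place, and the AP-1 core was most frequent between genes. The forkhead core was present in 24.1% of dbd-only sites near a start, 21.3% of those in introns and 23.2% of those between genes. The AP-1 core was present in 20.5% of those near a start (17.2 to 24.2) and 21.5% of those in introns (20.1 to 22.9). Between genes it was present in 25.1% of dbd-only sites (23.1 to 27.3). The AP-1 core was most frequent between genes in the other classes as well, so this order is not particular to dbd-only sites. Between genes and in introns it was present in 28.9% and 23.9% of shared sites. The same shares were 14.04% and 11.9% at sites in no other list, and 16.5% and 12.9% at the variants' sites.

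Along the chromosomes, the dbd-only share of FOXA1 peaks ran from 3.29% to 4.76% on chromosomes 1 to 22 and was 1.89% (1.40 to 2.55, 42 of 2222) on chromosome X. FOXA1dbd overlapped 4.95% of FOXA1 peaks on X, against 15.6% to 18.7% on chromosomes 1 to 22. Of the overlapped peaks, dbd-only sites made up 38.2% (29.6 to 47.5) on X and 18.0% to 26.6% on the others. The median distance between neighbouring dbd-only sites was 98942.5 bp.

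Long genes held dbd-only sites more often than short ones. A site lay in the body or within 10 kb of 3106 of 20136 protein-coding genes (15.4%). The share was 4.31% of genes under 20 kb and 60.8% of genes of 500 kb or more, while the dbd-only share of their FOXA1 peaks was 3.803% and 3.425%. The genes with the most sites were NAALADL2 (10 of its 187 FOXA1 peaks), a peptidase-like gene, and DPYD (7 of 221), which encodes a pyrimidine-degrading enzyme. EXT1, a heparan sulfate polymerase gene, had 7 of 65, INPP4B, a phosphoinositide phosphatase gene, 7 of 136, and NEGR1, a neuronal adhesion gene, 7 of 320.

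Genes of fibroblast function were read against the same background of 15.4% of genes and of 3.31% of FOXA1 peaks at genes. Of 24 collagen and matrix genes, 13 had a dbd-only site, and the sites were 18 of 537 FOXA1 peaks (3.35%, 2.13 to 5.24). Of 25 actin and adhesion genes 16 had one, with 27 of 633 peaks (4.27%, 2.95 to 6.13). Among them were LPP with 5 of its 105 FOXA1 peaks and CDH11, a mesenchymal cadherin, with 4 of its 27. Of 20 TGF-beta pathway genes 7 had one (12 of 297 peaks), including LTBP1, which binds latent TGF-beta, with 3 of its 49. Of 24 fibroblast transcription factor genes 7 had one (13 of 504 peaks), including RUNX1 with 4 of its 110, and the laminin gene LAMA2 had 3 of its 79. The intervals of all these shares of peaks include 3.31%.

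Among genes known as FOXA1 targets in other tissues, 5 of 35 liver genes had a dbd-only site (5 of 81 peaks, 6.17%, 2.67 to 13.6), as did 3 of 18 luminal and hormone response genes (4 of 90 peaks, 4.44%, 1.74 to 10.9). Of 13 genes that encode AP-1 proteins 1 had a site. The shares of peaks at these lists were also within counting error of that over all genes.

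Repeated sequence was more frequent at dbd-only sites than at sites without FOXA1dbd. A word of 12 bases was present more than once in the central 200 bp of 12.5% of them (11.7 to 13.4), as in the MIR99AHG site printed above, compared with 9.97% of shared sites, 6.60% of sites in no other list and 6.07% of the variants' sites. The difference from shared sites was 2.56 points (1.63 to 3.53) and that from sites in no other list 5.93 points (5.08 to 6.83). At like score the difference from shared sites was 3.84 points (1.19 to 6.52) in the lowest quintile of the FOXA1 score, 1.14 (-1.15 to 3.51) in the second, 0.370 (-1.64 to 2.52) in the third, -1.17 (-2.92 to 0.799) in the fourth and 2.12 (0.0168 to 4.61) in the highest. The difference from sites in no other list was above 0 in each quintile, from 2.61 points (1.03 to 4.44) in the fourth to 9.64 points (7.64 to 11.8) in the lowest. The share of dbd-only sites was 16.7% in the lowest quintile of the FOXA1 score and 10.5% in the highest. Sites with a repeated word held an AP-1 core in 7.84% of cases and a forkhead core in 20.5%, against 24.4% and 22.5% of the sites without one. How far reads can be placed uniquely in such sequence, and whether that has a part in these peaks, was not tested.

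**Figure D5:**
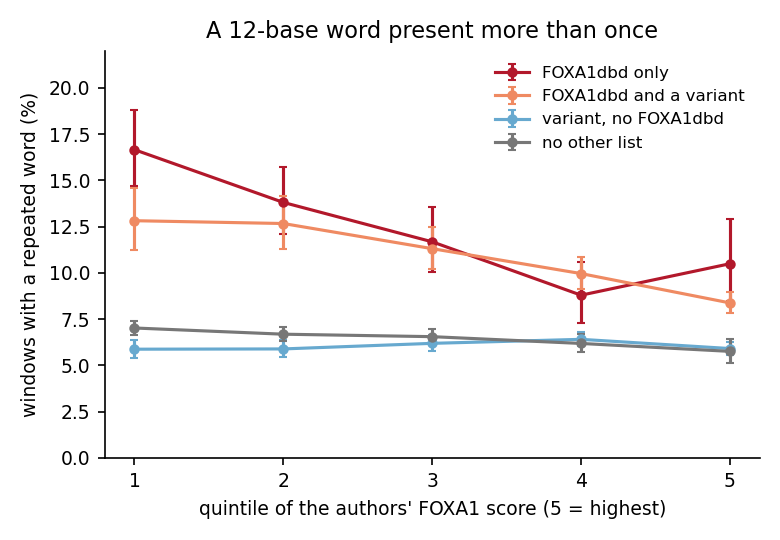
Percent of 200 bp windows in which a 12-base word is present more than once, by class and quintile of the authors' FOXA1 score; error bars are 95% Wilson intervals. The dbd-only sites go from 16.7% in the lowest quintile to 10.5% in the highest, and sites in no other list from 7.02% to 5.75%.

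Several forkhead cores in 1 window were rare. The central 200 bp held 2 or more in 198 dbd-only sites (3.41%, 2.98 to 3.91), compared with 2.996% of shared sites, 1.71% of sites in no other list and 1.88% of the variants' sites. The highest number was 9. Of the 8 sites with 4 or more cores, 7 held a repeated 12-base word.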

How the data were processed

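ChIP-seq peak lists of HALO-tagged FOXA1, FOXA1dbd, FOXA1nhaa, FOXA1rraa and HNF4A in BJ fibroblasts were used as deposited, in hg19 coordinates. Bowtie2 2.3.4.1, Picard, GATK 4.2.6.0, bedtools 2.27.1, MACS2 2.2.7.1 and deepTools 3.5.0 are named, per the submitters' processing notes, without their roles. Whether peaks were called per library or on pooled libraries, and how inputs were used, is not given in the sources used here. The deposited score per peak is the authors' own; the narrowPeak lists also hold a fold enrichment (a ratio) and −log10 p- and q-values from the authors' caller, and the deposited summit offset in bp. They serve here to describe peaks of 1 list or to order them, and never to compare lists. Without read counts the depth is unknown.

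Identical rows were counted once. Peaks overlapped when they shared 1 bp. Sequence came from GRCh37 and genes from GENCODE 44 lifted to it; peak ends lay within its chromosome lengths. Strings were searched on both strands in 200 bp around the row midpoint, and genome tiles are 1 in 20 consecutive 200 bp windows. A centre was assigned to a start within 1000 bp, then an exon, an intron or the space between genes. All 159 listed genes were found by symbol.

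The members, strings and gene lists were chosen with earlier results of these data known. Named sites are the 6 of highest FOXA1 score and the 4 of highest FOXA1dbd −log10 q-value; 1 of the 6 is not reported here. Printed sequences are the 5 highest-scoring sites with a forkhead core in the central 100 bp and the 2 highest-scoring with none in 200 bp, on chromosomes for which sequence is printed here. Named genes are the 5 with the most sites and list genes with 3 or more; hexamers are the 5 highest and 3 lowest ratios. Alternatives were other overlap rules, rows, windows, strings and distances; the settings on AP-1, on GC content, on repeated words and on the FOXA1dbd centre for shared sites were chosen after seeing the data. The overlap, string and interval code was tested on simulated data. Python 3.11.15, numpy 2.4.6, pandas 2.3.3, pysam 0.24.0 and matplotlib 3.10.9 were used.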

Additional observations from a re-analysis of the deposited data

How the results depend on the processing

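Of 145 recomputed values, 99 stayed within the interval of the value reported (or within 1.5 times a count), and the others moved beyond it. The sign changed for 10 differences; of these, 4 are forkhead differences from shared sites, whose reported interval includes 0. The forkhead difference from sites in no other list and that from the variants' sites each kept their sign in 13 of 15 settings, and the AP-1 differences from those classes in 14 of 15. The cause was not tested except where a setting uses fewer peaks, a shorter window or another string by construction.

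When FOXA1rraa rows identical to FOXA1 rows were dropped, the rule gave 10538 sites, a forkhead share of 24.4% and forkhead differences of 4.77 points from shared sites and 7.82 points from the variants' sites. The top 50% of FOXA1 peaks by score gave 2621 sites, an AP-1 share of 19.99% and AP-1 differences of -3.76, 8.43 and 7.17 points from shared sites, sites in no other list and the variants' sites. Peak centres within 200 bp gave differences from shared sites of -0.183 points for the forkhead core and -3.89 points for AP-1. A central window of 100 bp gave a forkhead share of 12.9%, forkhead differences of 3.29 points from sites in no other list and 3.02 from the variants' sites, an AP-1 share of 12.8% and AP-1 differences of -0.656, 6.21 and 5.78 points in the order above. TGTTTAC alone gave 9.24% and -0.249, 2.76 and 1.92 points, and TGACTCA alone 14.1% and 8.09 and 7.48 points. The reversed forkhead core gave 18.8% and turned the differences to -1.54 points from sites in no other list and -1.03 from the variants' sites. The reversed AP-1 core gave 6.91% and turned them to -0.0818 and -0.336. Windows of at least 35% GC gave a forkhead share of 14.2% with differences of -2.58, -0.529 and -2.09 points, the last 2 of opposite sign to the values reported, and an AP-1 share of 30.87% with differences of -0.158, 16.1 and 16.04 points. Centred on the FOXA1dbd peak, the forkhead difference from shared sites was -0.345, the AP-1 share 24.3% and its difference from shared sites -5.10 points. Windows without a repeated 12-base word gave an AP-1 share of 24.4% and AP-1 differences of 12.01 and 10.9 points from sites in no other list and the variants' sites. The share of sites near a start was 7.44% without sites that had a left-out peak within 1000 bp and 18.98% within 2500 bp of a start.

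No paired analysis was possible because a construct has only 1 peak list and no value comes from a test, which also leaves no replicate to omit. How many reads support each list is not known. A site without a variant's peak is one where none passed the caller's threshold, which the lists do not separate from absent binding.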

Other observations

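Short strings other than the forkhead and AP-1 cores also separated the dbd-only sites from sites in no other list. Of 1485 hexamers present in at least 2% of either class, counted on both strands, CACGTG (the E-box palindrome) had the highest ratio. It was present in 2.22% of dbd-only sites (1.87 to 2.64), 1.81% of shared sites and 1.03% of sites in no other list, a ratio of 2.17, while 1.80% of genome tiles held it. The ratio was 1.95 for ACGCAC, 1.92 for CGCACA, 1.86 for CACACG and 1.78 for TACGCA, and each of these 5 contains the dinucleotide CpG. The lowest ratios were those of AGTTAA (0.778), CCAAAC (0.773) and CTTAAC (0.740). The median ratio over the hexamers was 0.964, and these strings were picked by their ratio, so the values are a description.

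Bases next to the forkhead core were read from 1542 cores in dbd-only sites, with position 1 the first base of the core. After its last base, A stood in 45.1% and T in 36.4% of cores and G in 2.98%, compared with 41.2%, 38.9% and 2.52% at sites in no other list. The base 2 before the core was C in 25.4% (23.2 to 27.6) of dbd-only cores, 21.1% (19.98 to 22.2) of shared cores and 18.3% (17.6 to 19.0) of cores at sites in no other list. Cores in repeated sequence were counted each time.

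GGAATG, the core bound by TEAD factors, was present in 12.2% of dbd-only sites, 13.6% of shared sites, 11.1% of sites in no other list and 10.6% of genome tiles. The difference from shared sites was -1.40 points (-2.35 to -0.418) and that from sites in no other list 1.11 points (0.253 to 2.01). CAAAGTCCA, an HNF4 core, differed from sites in no other list by -0.0449 points (-0.152 to 0.123) and from shared sites by 0.0147 points (-0.109 to 0.188). TTGCNNAA, a CEBP core, was present in 14.8% of dbd-only sites, 15.2% of shared sites and 15.9% of sites in no other list.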
